A study of Mus musculus with 6 samples.

Results

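This report describes 30 mouse genes of selenium biology: 22 that encode selenoproteins and 8 that encode machinery without selenocysteine. They were taken by symbol from 53465 genes counted in Royan B20, a line of mouse embryonic stem cells. The list was selected on the change of mRNA counts between the 2 groups of cultures compared here, in which Selenoi had been seen to rise, so every difference between the groups is given as a description of the listed genes and supports nothing. All cultures grew on 0.1% gelatin, with 7 passages in R2i medium and LIF, a cytokine that maintains self-renewal of these cells. R2i contains 1 µM of the compound the labels write as PD0329501, which blocks MEK, and SB431542, an inhibitor of TGF-beta family receptors, at 10 µM. The control group (R2i_control, 3 libraries) received nothing more. The other group (R2i_BMPi, 3 libraries, called BMP-inhibited after its label) also received noggin at 250 nM, a secreted BMP antagonist, and dorsomorphin at 5 µM, which inhibits the type I receptor kinases of BMP signalling and also AMPK. Libraries are labelled biological replicates, with nothing on what separated them, and the time for which noggin and dorsomorphin were present is not given. Both inhibitors were always given together and all cells were of 1 line, so their effects cannot be told apart.

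Selenoproteins carry selenocysteine, an amino acid inserted at a UGA codon that would otherwise end translation. Recoding needs a hairpin in the 3′ end of the mRNA, the SECIS element, the protein SECISBP2 that binds it, and the elongation factor EEFSEC, which delivers selenocysteine tRNA. Selenocysteine is made on its own tRNA, from serine that is phosphorylated by PSTK and converted by SEPSECS with selenophosphate from SEPHS2. Most selenoproteins with a known activity are redox enzymes, among them glutathione peroxidases and thioredoxin reductases. GPX4, which reduces lipid hydroperoxides, is needed for early mouse development.

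The recoded codon stands at very different places in these transcripts. GENCODE release M21 marks a selenocysteine codon in 22 of the 30 genes. The following stretches of coding sequence, from its transcripts on GRCm38, show it in capitals. They come from the genes whose levels differed most, from relatives of these that show a shared surrounding, and from Selenos as a further example.
Selenoi: ccaaactcagatTGActaggaatggaa
Selenow: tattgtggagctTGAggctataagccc
Gpx1: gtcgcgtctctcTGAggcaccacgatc
Gpx2: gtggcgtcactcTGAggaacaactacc
Gpx3: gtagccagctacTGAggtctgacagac
Gpx4: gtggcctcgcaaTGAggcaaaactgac
Txnrd1: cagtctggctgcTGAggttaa
Txnrd2: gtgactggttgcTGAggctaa
Txnrd3: cagaaaggctgcTGAggctag
Sephs2: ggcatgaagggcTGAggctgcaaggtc
Selenos: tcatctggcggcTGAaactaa
In the 3 thioredoxin reductases a tgc codon precedes the UGA and 1 codon and the stop follow it. The base after the first UGA was G in 12 of the 22 genes, all 4 glutathione peroxidases and all 3 thioredoxin reductases among them, C in 5 with Selenoi among these, A in 3 and T in 2. In 7 genes, Selenoi included, the codon lay within 10 residues of the protein's end. In Selenoi it is residue 388 of 398, at chr5:30266964-30266966 on the plus strand in exon 10 of 10. In Selenow it is residue 13 of 88, at chr7:15920464-15920466 on the minus strand in exon 2 of 6. In Txnrd1 it is residue 498 of 499 (chr10:82896037-82896039, plus strand) and in Gpx2 residue 40 of 190 (chr12:76795256-76795258, minus strand). Selenop, which encodes the secreted selenium carrier, has 10 such codons, and Dio2 has 2.

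Gene counts totalled 31474666 to 35322844 per library. Levels are CPM, counts scaled to a common library size after TMM normalization, given as mean ± SD over 3 libraries, and rose or fell is written of genes past an adjusted p of 0.05 in edgeR's quasi-likelihood test over all 15951 genes that passed the count filter. BMP-inhibited replicate 2 stood apart from the other libraries of its group on the second principal component (4.7% of the variance), at 15.4 against -11.7 and -2.1. On the first component (87.7%) it was the nearest of its group to the control libraries, at 29.5 against 36.8 and 36.7. The control libraries lay at -34.6 to -34.2. Of all tested genes 32.5% were called higher and 31.7% lower, 64.2% in either direction, and the counts of markers stand beside those shares. All 10 pluripotency markers were tested, with 1 higher and 6 lower, summing to 5469 to 5664 CPM in the control cultures against 4788 to 5043 CPM in BMP-inhibited libraries. Klf4 (log2 fold change -0.81, SE 0.05), Nanog (-0.47, SE 0.04) and Esrrb (-0.32, SE 0.04) fell, and Dppa5a rose (0.83, SE 0.05). Trophectoderm markers summed to 178.8 to 182.5 CPM in the control cultures against 339.4 to 426.1 CPM in BMP-inhibited libraries, and 6 of their 8 tested members rose. Most of the control sum was Tfap2c, which missed the threshold (128.1 ± 1.20 and 137.1 ± 9.06 CPM). Krt8 rose from 18.15 ± 0.807 to 89.96 ± 15.7 CPM and Krt18 from 12.03 ± 0.799 to 78.3 ± 11.8 CPM. Gata3 and Fgfr2 rose by 2.73 (SE 0.14) and 2.51 (SE 0.09) on the log2 scale. Eomes was not called (log2 fold change 0.04, SE 0.10), and Cdx2 and Elf5 had too few counts to be tested. Krt8, Gata3, Fgfr2 and Eomes share exons with other annotated genes. The 10 primitive endoderm markers summed to 563.7 to 581.2 and 723.5 to 776.3 CPM, with 4 of 8 tested members higher and 2 lower. Most of that sum was Sparc, which rose from 464.6 ± 10.3 to 602.1 ± 27.6 CPM. Lamb1 also rose (log2 fold change 0.72, SE 0.04), while Gata4 (-0.74, SE 0.10) and Sox7 (-1.08, SE 0.12) fell. The 10 fibroblast markers summed to 11.8 to 13.5 and 15.9 to 16.9 CPM, with 3 of 6 tested members higher and 1 lower. Acta2 had 0 counts in every control library and was at 2.37 ± 0.568 CPM in BMP-inhibited libraries, Col1a1 rose from 1.28 ± 0.267 to 3.46 ± 0.167 CPM, and Postn from 0.0201 ± 0.0348 to 0.497 ± 0.220 CPM. Col3a1, not tested, had 0 counts in every control library and 8, 9 and 7 counts in the others. Fbn1 fell from 6.02 ± 0.369 to 4.38 ± 0.870 CPM, and Lum and Dcn had at most 1 count in a library. The part of these markers in the results below was not tested. In bulk cultures fewer cells of a type and less RNA per cell cannot be told apart.

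Of the 30 genes 28 passed the count filter, and their changes went both ways. In BMP-inhibited cells 10 were higher and 10 lower (71.4% called), where 32.5% of all tested genes were called higher, 31.7% lower and 64.2% in either direction. The median log2 fold change of the 28 genes was 0.00, as it was over all tested genes. The groups did not overlap for 22 of the 28, against 68.6% of all tested genes. Among the 20 tested selenoprotein genes 9 rose and 7 fell. Of the 8 machinery genes 1 rose and 3 fell. Summed over the 22 selenoprotein genes, the level was 2027, 2022 and 2055 CPM in the control libraries and 2187, 2334 and 2282 CPM in the BMP-inhibited ones. This sum was higher in each BMP-inhibited library than in any control library. Without Txnrd1, left out after its values were seen, the sum was 1671 ± 16.7 CPM for control cultures and 1655 ± 69.1 CPM for BMP-inhibited ones, and the groups overlapped. The 8 machinery genes together gave 375.1, 378.0 and 364.9 CPM in the control cultures against 364.0, 352.5 and 357.2 CPM in BMP-inhibited libraries.

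**Figure D1:**
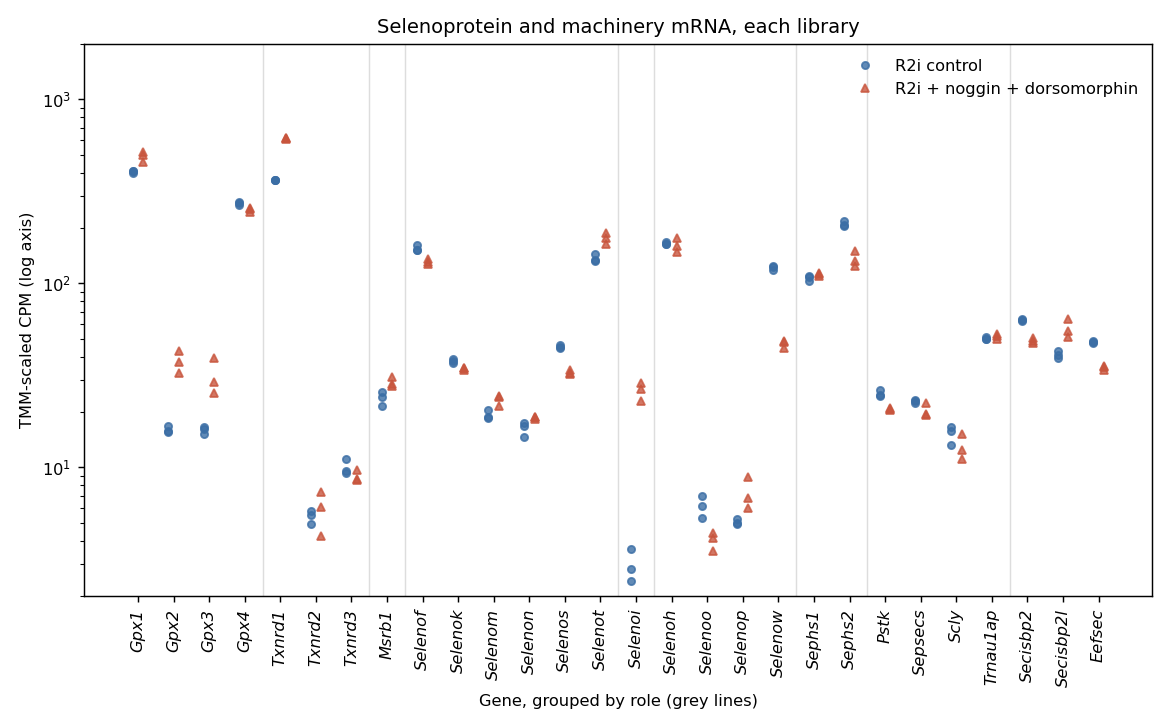
TMM-scaled CPM on a log axis of the 28 tested genes in each library, with control cultures as blue circles and BMP-inhibited cultures as red triangles. Grey lines part the roles; Selenoi lies between 2.41 and 3.59 CPM in the control cultures against between 22.9 and 28.8 CPM in BMP-inhibited libraries, while Selenow falls from above 118 to below 49 CPM.

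Selenoi had by far the largest difference of the 28 genes. It encodes ethanolamine phosphotransferase, the selenoprotein of the endoplasmic reticulum and Golgi that joins CDP-ethanolamine to diacylglycerol to make phosphatidylethanolamine. The control libraries held 96, 130 and 80 counts (2.81, 3.59 and 2.41 CPM) and the BMP-inhibited libraries 892, 713 and 878 counts (28.8, 22.9 and 26.7 CPM). Every BMP-inhibited library was thus several times above the highest control library, and BMP-inhibited replicate 2 was the lowest of its group. The fold was 8.86 (log2 fold change 3.15, SE 0.13), which stood at place 196 from the top of the 15951 tested genes. Leaving out any 1 library gave log2 fold changes of 3.02 to 3.31. Selenoi (ENSMUSG00000075703) spans 30232581 to 30272427 on the plus strand of chromosome 5 in GRCm38, with no exon shared with another annotated gene and no near-identical transcript found.

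None of the tested genes beside Selenoi was called higher. Of 13 annotated genes within 200 kb, 7 were tested and 3 of these were lower by edgeR's test. The shares over all tested genes were 32.5% higher and 31.7% lower. The nearest tested gene upstream, Adgrf3, which encodes an adhesion G protein-coupled receptor, lies 26859 bases away on the opposite strand. Its level was 0.528 ± 0.124 CPM in the control cultures against 0.180 ± 0.178 CPM in BMP-inhibited libraries, levels of few counts. The nearest gene downstream, Drc1, a component of the dynein regulatory complex of cilia, begins 8961 bases past the end of Selenoi on the same strand. Its mean was 1.27 ± 0.391 CPM without and 1.29 ± 0.248 CPM with the inhibitors (log2 fold change 0.02, SE 0.29). Hadha and Hadhb, the subunits of the mitochondrial trifunctional protein of fatty acid oxidation, had log2 fold changes of -0.27 (SE 0.05) and 0.02 (SE 0.06). Gm16288, annotated within Selenoi on the opposite strand, had 9 counts over all 6 libraries.

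**Figure D2:**
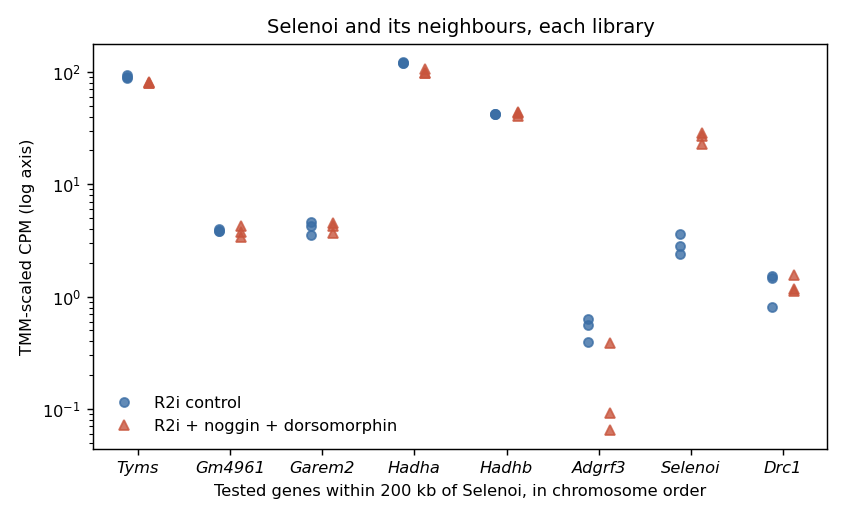
TMM-scaled CPM on a log axis of Selenoi and the 7 tested genes within 200 kb of it, in chromosome order, with 3 control libraries (circles) and 3 BMP-inhibited libraries (triangles) for each. Selenoi is higher in the BMP-inhibited libraries, and none of the 7 neighbours was called higher, against 32.5% of all tested genes.

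The 250 bases before the annotated RefSeq start of Selenoi, at chr5:30232331-30232580 on GRCm38.p6, plus strand, are shown because this gene changed most, with each GGGCGG (the core of a GC box, searched on both strands and chosen after the sequence was seen) in capitals.
Selenoi: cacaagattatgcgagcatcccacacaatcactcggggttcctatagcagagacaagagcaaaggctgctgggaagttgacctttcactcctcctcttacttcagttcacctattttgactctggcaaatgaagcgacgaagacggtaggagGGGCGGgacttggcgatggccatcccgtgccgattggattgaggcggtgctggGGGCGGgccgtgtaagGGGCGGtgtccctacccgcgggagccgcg
This stretch held 3 matches, was 58.4% G and C and contained 17 CG dinucleotides. Over windows of 300 bases (250 before and 50 after a RefSeq start) GGGCGG was present in 35.7% of 32851 windows and in 20 of the 37 windows of the listed genes, 29 of which had an entry. The antioxidant response element core TGACNNNGC, through which NRF2 acts on oxidative stress genes, was present in 12.4% of all windows and in those of Txnrd1 and Selenok, which moved in opposite directions. The match in Txnrd1 lies on the opposite strand, at chr10:82859099-82859137 with its surroundings, and that in Selenok on the plus strand at chr14:29968321-29968359, with the matches in capitals and both stretches written along the plus strand.
Txnrd1: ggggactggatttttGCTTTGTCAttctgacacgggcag
Selenok: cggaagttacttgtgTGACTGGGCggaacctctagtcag
The core of the element bound by ATF4 with C/EBP factors, TGATGNAA, was found for Sephs1 alone (3.97% of all windows). The endoplasmic reticulum stress response element II was found in none of the 37 windows and in 0.0365% of all. Both strands were searched, and a match is a run of letters, not a binding site.

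The other enzymes of the CDP-ethanolamine and CDP-choline pathways, which make the main membrane phospholipids, moved in both directions. Of 13 genes 12 were tested, 5 rose and 3 fell (66.7% called, against 64.2% of all tested genes), with a median log2 fold change of 0.20. Chka, a choline and ethanolamine kinase, rose from 46.5 ± 0.352 to 82.3 ± 3.40 CPM, the largest of these called rises at a log2 fold change of 0.82 (SE 0.05). Etnk1, the ethanolamine kinase that begins the pathway SELENOI ends, rose by 0.33 (SE 0.04). Chkb and Pcyt1b, a kinase and an enzyme that makes CDP-choline, had log2 fold changes of -0.60 (SE 0.05) and -0.37 (SE 0.07). Cept1, which encodes the enzyme without selenocysteine that can also perform the last step, fell from 37.5 ± 0.373 to 31.6 ± 2.16 CPM, and Pcyt2, of the step before it, rose from 57.4 ± 4.09 to 64.4 ± 0.740 CPM. Chka, Chkb, Etnk1 and Cept1 share exons with antisense genes, and the strand setting used in counting is not given in the sources used here. Chkb also shares exons with a gene on its own strand, Gm44502, so its count is uncertain under any strand setting.

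The glutathione peroxidases, which reduce peroxides with glutathione, all passed the test, 3 higher and 1 lower. Among all tested genes 64.2% passed, 32.5% higher and 31.7% lower. Gpx2, an epithelial form of the enzyme and a known NRF2 target, was at 15.7, 15.5 and 16.9 CPM in the control cultures against 32.7, 42.8 and 37.5 CPM in BMP-inhibited libraries (log2 fold change 1.23, SE 0.09). Gpx3, the secreted form, was at 15.2, 16.3 and 16.6 CPM in the control cultures against 25.5, 39.1 and 29.1 CPM in BMP-inhibited libraries (log2 fold change 0.96, SE 0.12). For both genes the groups did not overlap, as for 68.6% of all tested genes, and BMP-inhibited replicate 2 was the highest library. Without it the log2 fold change of Gpx3 was 0.77 and that of Gpx2 1.14. Gpx1, the abundant cytosolic form, rose from 404.8 ± 6.12 to 491.7 ± 30.9 CPM, a 1.21-fold difference. Gpx4 was at 272.6, 268.1 and 275.8 CPM in the control cultures against 244.0, 254.7 and 258.1 CPM in BMP-inhibited libraries, a log2 fold change of -0.11 (SE 0.04). Its fall was small beside that of most called members, and its call was lost without control replicate 1, control replicate 3 or BMP-inhibited replicate 1 (log2 fold changes -0.11, -0.11 and -0.08). Gpx4 also has a processed pseudogene, Gpx4-ps2, that matches 73.7% of its longest transcript at 99.7% identity, so its count is uncertain.

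Among the thioredoxin reductases, which keep thioredoxin reduced, the cytosolic enzyme was the member that changed. Txnrd1 was at 363.9, 362.7 and 365.0 CPM in the control cultures against 607.9, 618.8 and 613.0 CPM in BMP-inhibited libraries. The libraries of each group lay close together, and the log2 fold change was 0.75 (SE 0.04). Txnrd2, the mitochondrial enzyme, was at 5.43 ± 0.436 and 5.89 ± 1.58 CPM, and Txnrd3, known from testis, at 10.03 ± 0.989 and 8.93 ± 0.658 CPM. The groups overlapped for both. The log2 fold change was 0.12 (SE 0.17) for Txnrd2 and -0.17 (SE 0.11) for Txnrd3. The count of Txnrd2 is uncertain because the strand setting is not known.

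Of 12 genes for thioredoxins, peroxiredoxins and their partners 7 rose and 1 fell (66.7% called, against 64.2% of all tested genes), with a median log2 fold change of 0.35 against 0.00 over all tested genes. Txnip, whose protein binds and inhibits thioredoxin, was the single gene that fell, to 401.3 ± 51.3 from 1022 ± 13.0 CPM (log2 fold change -1.35, SE 0.07). Prdx6, a peroxiredoxin that uses glutathione, rose from 106.1 ± 2.84 to 227.9 ± 16.9 CPM. Txn2, the mitochondrial thioredoxin, and Txnl1, a thioredoxin-like protein of the proteasome, rose by 0.58 and 0.57 on the log2 scale (SE 0.04 for each). Txnip and Txnl1 share exons with antisense genes.

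All 12 genes of the list around GPX4 and ferroptosis, a death by lipid peroxidation, were called, 7 higher and 5 lower, where 64.2% of all tested genes were called, and their median log2 fold change was 0.14. Slc7a11, the cystine importer that feeds glutathione synthesis, fell to 1.03 ± 0.377 from 5.35 ± 0.526 CPM (log2 fold change -2.38, SE 0.22). Its partner chain Slc3a2 had a log2 fold change of -0.45 (SE 0.04). The glutathione synthesis genes Gss and Gclc rose, by 0.91 (SE 0.06) and 0.59 (SE 0.05). Gss shares exons with antisense genes.

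Selenoproteins of the endoplasmic reticulum were split, with 2 higher, 3 lower and 1 past no threshold. Among all tested genes 32.5% were higher and 31.7% lower. Selenos, a membrane protein that recruits the ATPase p97 to degrade misfolded proteins, was at 46.4, 45.3 and 44.4 CPM in the control cultures against 32.6, 33.8 and 32.0 CPM in BMP-inhibited libraries (log2 fold change -0.47, SE 0.06). Every BMP-inhibited library lay below every control library. Selenof, a thioredoxin-fold partner of the glycoprotein folding sensor, fell from 155.2 ± 5.94 to 131.2 ± 4.91 CPM. Selenok, a cofactor of protein palmitoylation, was at 37.97 ± 1.09 and 34.5 ± 0.390 CPM. The Selenok call was lost with 9 of 14 alternatives, among them DESeq2 (log2 fold change -0.13), the replicate block (-0.14) and leaving out any library other than BMP-inhibited replicate 2.

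In the other direction, Selenot, a thioredoxin-like membrane protein, was at 133.1, 134.4 and 144.1 CPM in the control cultures against 175.8, 163.2 and 187.5 CPM in BMP-inhibited libraries (log2 fold change 0.36, SE 0.05). Selenom, a soluble relative of SELENOF, rose from 19.3 ± 0.994 to 23.4 ± 1.54 CPM. Selenon, a calcium-pump regulator mutated in congenital muscle disease, had means of 16.3 ± 1.42 and 18.6 ± 0.235 CPM and missed the threshold at a log2 fold change of 0.19 (SE 0.08). It passed without control replicate 1 (0.24) and with the stricter count filter (0.20). The 6 genes of this compartment summed to 405.7 to 414.7 CPM in the control cultures against 409.6 to 426.9 CPM in BMP-inhibited libraries, ranges that overlap.

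Selenow had the largest fall of the 28 genes. It encodes a small thioredoxin-fold protein of the cytosol that is among the selenoproteins most sensitive to selenium supply. It was at 118.1, 123.8 and 122.8 CPM in the control cultures against 48.3, 44.5 and 48.9 CPM in BMP-inhibited libraries. The lowest control library was more than 2-fold above the highest BMP-inhibited one, and the log2 fold change was -1.36 (SE 0.05). Leaving out any 1 library gave -1.39 to -1.32. Selenow (ENSMUSG00000041571) lies at 15917208 to 15922402 on the minus strand of chromosome 7.

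Selenoo, a mitochondrial enzyme that attaches AMP to proteins, was at 5.30, 7.03 and 6.18 CPM in the control cultures against 4.13, 4.40 and 3.50 CPM in BMP-inhibited libraries (log2 fold change -0.62, SE 0.15). Selenop rose from 5.03 ± 0.162 to 7.26 ± 1.47 CPM (log2 fold change 0.53, SE 0.15), with BMP-inhibited replicate 3 the highest at 8.89 CPM. Without that library the value was 0.36. Both genes share exons with antisense genes, Tubgcp6 and Ccdc152, so their counts are uncertain. Selenoh, a nucleolar thioredoxin-fold protein, was at 165.4 ± 2.15 and 161.7 ± 13.7 CPM with overlapping groups. Msrb1, which repairs oxidised methionine, rose from 23.8 ± 2.13 to 29.07 ± 1.77 CPM.

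The deiodinases Dio1 and Dio2, which activate or inactivate thyroid hormone, were close to absent. Dio1 had 1 count, in control replicate 1. Dio2 had 0 counts in every control library and 2, 1 and 1 counts in the BMP-inhibited libraries. A count of 0 allows 0.0828 to 0.0969 CPM (3 counts of each library), so neither can be compared. Of the selenoprotein genes outside the list, Dio3, the inactivating deiodinase from an imprinted domain, rose from 7.84 ± 0.383 to 21.3 ± 1.73 CPM (log2 fold change 1.44, SE 0.09), and Selenov was at 0.293 ± 0.140 and 0.154 ± 0.184 CPM.

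**Figure D3:**
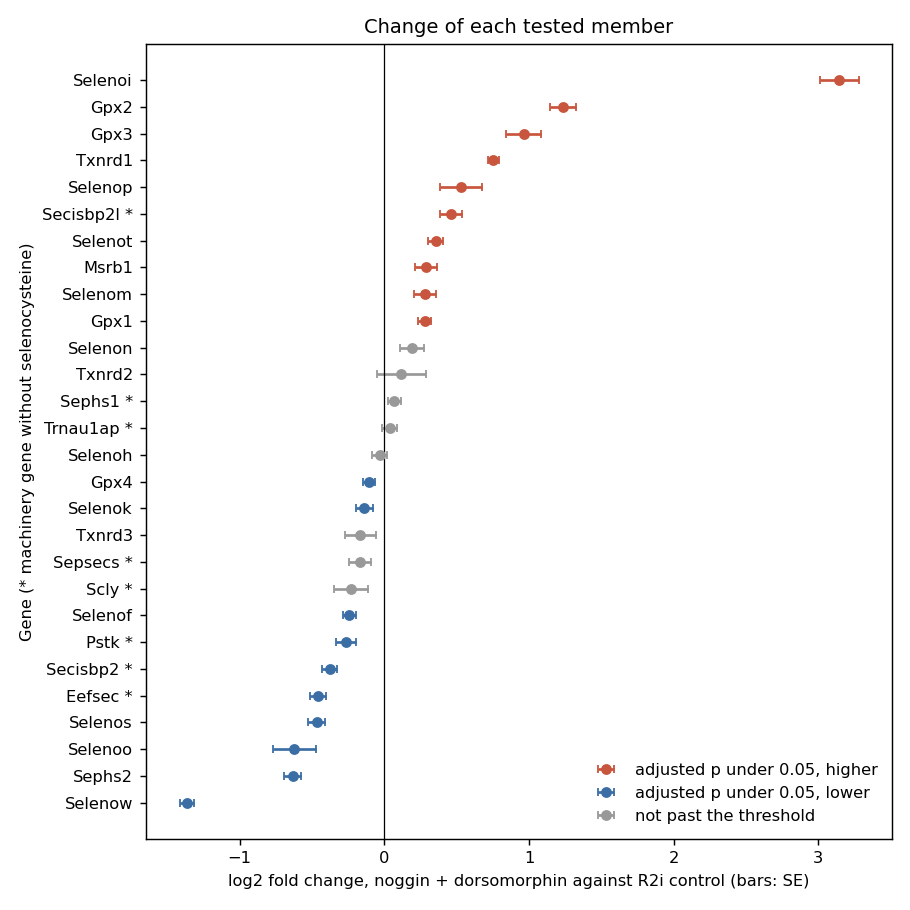
Log2 fold change (x axis, bars are SE) of the 28 tested genes, ordered by size, in BMP-inhibited against control cultures of 3 libraries each. Red genes were called higher and blue genes lower at an adjusted p of 0.05, grey genes passed neither way, and an asterisk marks machinery genes; Selenoi at 3.15 and Selenow at -1.36 are the extremes.

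Of the 8 machinery genes without selenocysteine 1 was called higher and 3 lower (50% called). Among all tested genes 32.5% were higher and 31.7% lower, 64.2% in either direction. Sephs2, the selenophosphate synthetase that is itself a selenoprotein, was at 204.5, 208.7 and 217.6 CPM in the control cultures against 132.5, 149.9 and 124.3 CPM in BMP-inhibited libraries (log2 fold change -0.63, SE 0.06). All BMP-inhibited libraries lay below all control libraries. Its relative Sephs1, which lacks selenocysteine and does not make selenophosphate, had means of 106.8 ± 3.65 and 112.0 ± 2.27 CPM and missed the threshold. Sephs2 shares exons with an antisense gene.

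The UGA recoding factors divided. Eefsec, the selenocysteine elongation factor, was at 47.8, 47.2 and 48.5 CPM in the control cultures against 33.7, 35.0 and 35.6 CPM in BMP-inhibited libraries (log2 fold change -0.46, SE 0.06). Secisbp2, which encodes the SECIS-binding protein, was at 64.4, 63.5 and 62.8 CPM in the control cultures against 50.8, 48.4 and 47.4 CPM in BMP-inhibited libraries (log2 fold change -0.38, SE 0.05). Its paralogue Secisbp2l rose, from 39.1, 43.2 and 41.0 CPM to 63.7, 51.1 and 55.1 CPM (log2 fold change 0.46, SE 0.07). None of these 3 genes had overlapping groups, where the groups did not overlap for 68.6% of all tested genes. The paralogues moved in opposite directions. Eefsec shares exons with an antisense gene.

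On the tRNA side, Pstk fell from 25.1 ± 0.962 to 20.8 ± 0.330 CPM, a log2 fold change of -0.27 (SE 0.07). Its exons overlap those of Ikzf5 on the opposite strand. Sepsecs had means of 22.8 ± 0.496 and 20.4 ± 1.72 CPM (log2 fold change -0.17, SE 0.08). Scly, which releases selenium from selenocysteine for reuse, was at 15.7, 16.7 and 13.2 CPM in the control libraries and 11.2, 15.25 and 12.5 CPM in the others (log2 fold change -0.23, SE 0.12). The groups overlapped for both and neither passed. Sepsecs passed with library totals only (-0.23), with upper-quartile factors (-0.18) and without BMP-inhibited replicate 1 (-0.23). Scly passed when library totals were the sole scaling (-0.29), when genes of low count were kept (-0.23), and when control replicate 3 (-0.33) or BMP-inhibited replicate 2 (-0.36) was left out. Scly shares exons with an antisense gene. Trnau1ap, which binds the selenocysteine tRNA, was at 50.2 ± 0.884 and 51.5 ± 1.62 CPM, with overlapping groups.

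Of 10 further factors of the selenocysteine tRNA, UGA recoding and decay of mRNAs with early stop codons, 3 rose and 3 fell (60% called, against 64.2% of all tested genes). Sars, the seryl-tRNA synthetase that charges this tRNA with serine, fell to 293.4 ± 10.5 from 472.7 ± 4.14 CPM (log2 fold change -0.69, SE 0.04). Xrn1, a nuclease that degrades mRNA from its 5′ end, had a log2 fold change of -0.90 (SE 0.07) and overlaps antisense genes. Smg1, the kinase of nonsense-mediated decay, rose by 0.83 (SE 0.09), and Eif4a3, of the exon junction complex, by 0.38 (SE 0.04). Of the 4 tested selenium uptake receptors and binding proteins 2 rose (32.5% of all tested genes rose). They were the endocytic receptors Lrp1, with a log2 fold change of 1.18 (SE 0.07), and Lrp2, which takes up selenoprotein P in kidney, at 0.77 (SE 0.09). Lrp8, the selenoprotein P receptor of brain and testis, had means of 10.4 ± 0.928 and 11.97 ± 1.02 CPM and missed the threshold, as did Selenbp1.

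The cysteine homologues, enzymes of the same families or, for Gsr, the same cycle, that use no selenium, moved in both directions. Of 8 genes 7 were tested, 2 rose and 5 fell, where 32.5% of all tested genes rose and 31.7% fell, and the median log2 fold change was -0.79. Their summed level went the other way, from 239.9 to 248.0 CPM in control libraries to 261.1 to 277.7 CPM in BMP-inhibited ones. Msrb2, the mitochondrial counterpart of Msrb1, fell from 37.2 ± 1.17 to 20.8 ± 0.885 CPM, and Gpx7, of the endoplasmic reticulum, from 14.4 ± 0.267 to 7.66 ± 1.22 CPM. Msra, which repairs the other stereoisomer of oxidised methionine, had a log2 fold change of -0.79 (SE 0.13). The log2 fold change of Gsr was 0.39 (SE 0.04).

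Levels of different genes were compared per kilobase of annotated exon, over all transcripts of a gene. In control cultures Gpx1 led at 280.9 CPM per kilobase, followed by Selenow (165.2), Gpx4 (157.8), Selenoh (146.2), Sephs2 (96.6) and Txnrd1 (51.3). The control libraries of neighbours in this order did not overlap down to Selenok at place 10. From Selenok (20.1) to Msrb1, Trnau1ap, Sephs1 and Eefsec (17.1), neighbours overlapped and their order is not resolved. Selenoi was lowest of the 28 tested genes at 0.224 CPM per kilobase. In BMP-inhibited cultures Gpx1 again led at 341.2 CPM per kilobase. Selenow moved from place 2 to place 5, at 64.1, Txnrd1 from place 6 to place 4, at 86.5, and Selenoi, at 1.99, had passed Txnrd2 and Selenoo.

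A UGA followed by an exon junction more than about 50 bases downstream can mark an mRNA for nonsense-mediated decay when it is read as a stop, a property known to lower some selenoprotein mRNAs when selenium is short. By the annotated transcripts 13 of the 22 genes had the last junction 78 to 470 bases past the first UGA, and the other 9 had it at most 34 bases past, before the UGA, or, in Sephs2, had no junction. Over all tested genes 32.5% rose and 31.7% fell. Of the 12 tested genes of the first kind 6 rose and 3 fell, with a median log2 fold change of 0.24. Of the 8 tested genes of the second kind 3 rose and 4 fell, with a median of -0.15. The part of such decay in their levels was not tested. Selenium in the medium is not given in the sources used here.

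**Figure D4:**
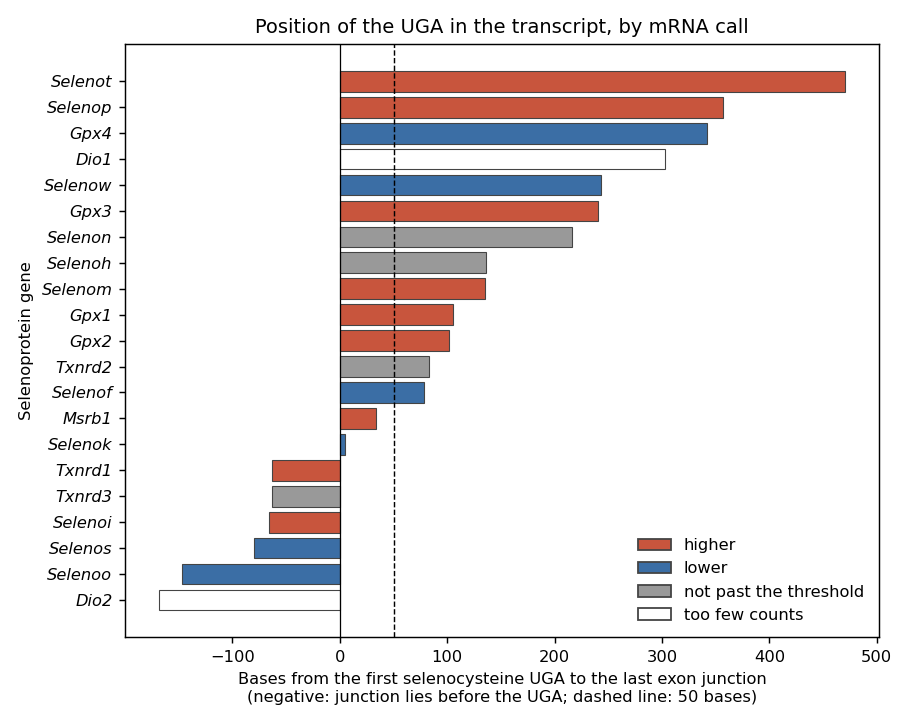
Distance in bases from the first selenocysteine UGA to the last exon junction of the annotated transcript (x axis) for 21 selenoprotein genes, Sephs2 having no junction. Colours give the mRNA call as in the legend; genes called higher and genes called lower both lie on either side of the dashed line at 50 bases.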

How the data were processed

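The authors deposited unnormalized gene counts of 6 libraries. Tools listed in the submitters' processing notes, without roles, are STAR 2.6.1, cutadapt 1.4.2, DESeq2, HTSeq 0.9.1 and CASAVA 1.8.2, with the build GRCm38.p6. Annotation release and strand setting are not given in the sources used here. The 5 rows that name no gene held 25.6% to 26.4% of reads and were left out. Symbols, exons and selenocysteine codons came from GENCODE release M21 (GRCm38), which matched 53360 of 53465 identifiers, and promoters from RefSeq on GRCm38.p6. Among transcripts marked with selenocysteine, the APPRIS principal one gave the UGA position, then a CCDS one, then the longest coding sequence.

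Counts were filtered with edgeR 4.0.16 (minimum count 10, total 15), TMM-scaled and compared with its quasi-likelihood F test, two-sided, with Benjamini-Hochberg adjustment over all tested genes. Each SE is the unshrunk log2 fold change divided by the root of its F statistic. With 3 libraries per group, each p-value weighs the difference of the groups against the spread between these libraries. That spread is estimated with information shared over the tested genes. Tested on simulated data drawn for this comparison (15951 genes), the method called 86% of 100 genes changed 1.5-fold and 98% of 100 changed 2-fold. Of its calls 5.2% were false. Only these genes, picked among those of higher count, were changed, whereas 64.2% of tested genes were called in the real data. Most called members differed by less than 1.5-fold, a size that was not simulated. Alternatives were DESeq2 1.42.0, limma-voom (limma 3.58.1), other scalings and filters, a replicate block and leaving out each library. BLAST 2.17.0 searched member transcripts for other genes at 90% identity or more. The members and all gene lists were chosen with earlier results of these data known. All 30 members are named, and from each other list up to 4 tested genes with the smallest p, and the neighbours of the member with the largest change. Cept1, Pcyt2, Hadha, Hadhb, Gm16288, Eomes, Tfap2c, Cdx2, Elf5 and the fibroblast markers named were added after their values were seen. R 4.3.3 and Python 3.11.15 were used.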

Additional observations from a re-analysis of the deposited data

How the results depend on the processing

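Over 14 alternatives the members called higher numbered 10 to 11 and those called lower 8 to 12, against 10 and 10, and the genes called in all 9104 to 10890, against 10236. Of the 20 called members, 18 were called in the same direction under every alternative run, the exceptions being Gpx4 and Selenok. Of 392 values for single members, 368 kept direction and side of the threshold, 12 lost the call and 9 gained it. A change of sign occurred in 3, all for genes not called: Trnau1ap with library totals only (-0.022), Txnrd2 without BMP-inhibited replicate 2 (-0.072) and Selenoh without BMP-inhibited replicate 1 (0.026). The cause was not tested. Leaving out each library in turn gave -0.072 to 0.308 for Txnrd2 and -0.096 to 0.026 for Selenoh. With the replicate block, 10 members were higher and 9 lower, and 10210 genes were called in all. Deviations of same-numbered libraries correlated at -0.06, 0.00 and 0.05, and not every library correlated best with its own number, so the numbers pair nothing that these data show. Dio1 and Dio2 had too few counts to compare. The SECIS elements, selenium supply and protein levels were not analysed here.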
